A study of Homo sapiens with 8 samples.

Results

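The collagen genes of 92.1 cells, an established human uveal melanoma line, are described here over 4 treatments. The members were all rows of the expression table whose symbol is COL, a type number, A and a chain number, which gave 39 genes of 18406. Of these, 11 encode fibrillar chains, 8 chains of basement membrane collagens (types IV, XV and XVIII) and 20 chains of other types. Single genes are given where the mean of at least 1 group reached 20 in the deposited unit, which held for 22 genes: 6 fibrillar, 7 basement membrane and 9 other. Nearest to this level, COL28A1 (16.3) and COL3A1 (19.7) lay outside, and COL11A1 (25.2) and COL7A1 (31.1) inside, by their highest group mean. The other 17 genes lay between 0 and 30.1 in single libraries, with no group mean above 19.7, and the partner chain genes COL1A2, COL5A1, COL6A3 and COL4A3 were among them.

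Cells were exposed for 24 h to DMSO as vehicle, to 10 nM trametinib, to 10 nM panobinostat or to both drugs, with 2 libraries per group. Trametinib is an inhibitor of the MEK kinases of the ERK pathway. Panobinostat is a broad inhibitor of histone deacetylases. The panobinostat label also calls that drug a MEK inhibitor, and the drug name was followed. The combination label gives 10 nM once, and every comparison with the combination assumes that this dose applied to each drug. The panobinostat and combination libraries form a later block of sample records than the vehicle and trametinib libraries, and the sources used here do not say whether all 8 were made or sequenced together. A difference between these blocks cannot be told apart from panobinostat in the comparisons of panobinostat or the combination with vehicle and of the combination with trametinib, while trametinib against vehicle and the combination against panobinostat lie within a block, and the interaction equals the latter minus the former. All groups share 1 cell line, no source says that the 2 libraries of a group came from separate cultures, so the p-values measure a spread between libraries that may be technical.

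Collagens are secreted proteins built from 3 chains wound into a triple helix. Fibrillar types form the banded fibrils of connective tissue, while type IV forms the sheet-like network of basement membranes, and types XV and XVIII sit at or near those membranes. FACIT collagens attach to fibril surfaces or resemble those that do, type VI forms beaded filaments near cells, type VII forms anchoring fibrils under epithelia, and type XXV is a transmembrane collagen whose outer part can be shed. The genes for type IV chains lie in head-to-head pairs, COL4A1 with COL4A2, COL4A3 with COL4A4 and COL4A5 with COL4A6, each pair transcribed in opposite directions from neighbouring start sites.

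The stretches upstream of the start sites are shown for the genes on which the results below turn: the largest rise with panobinostat (COL12A1), the falls with trametinib (COL19A1 and COL25A1), and a type IV pair that moved little (COL4A1 and COL4A2) against a chain that rose in every treatment (COL4A5). Sequences are from RefSeq on GRCh38.p14, 5′ to 3′ on the strand of the gene, and the stretch between COL4A1 and COL4A2 is on the plus strand. Capitals mark the GC box GGGCGG or its reverse complement CCGCCC.
COL12A1, chr6:75206054-75206303, minus strand: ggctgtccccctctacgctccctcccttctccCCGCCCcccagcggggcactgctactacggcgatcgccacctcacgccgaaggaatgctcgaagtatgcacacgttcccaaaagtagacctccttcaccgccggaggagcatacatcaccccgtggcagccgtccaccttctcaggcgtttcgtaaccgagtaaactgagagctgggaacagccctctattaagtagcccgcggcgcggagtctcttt
COL19A1, chr6:69866306-69866555, plus strand: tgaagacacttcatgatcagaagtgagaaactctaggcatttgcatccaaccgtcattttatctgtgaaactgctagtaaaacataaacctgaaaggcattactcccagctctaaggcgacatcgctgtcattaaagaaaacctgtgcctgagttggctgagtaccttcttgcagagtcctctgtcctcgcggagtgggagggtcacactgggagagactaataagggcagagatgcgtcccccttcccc
COL25A1, chr4:109302659-109302908, minus strand: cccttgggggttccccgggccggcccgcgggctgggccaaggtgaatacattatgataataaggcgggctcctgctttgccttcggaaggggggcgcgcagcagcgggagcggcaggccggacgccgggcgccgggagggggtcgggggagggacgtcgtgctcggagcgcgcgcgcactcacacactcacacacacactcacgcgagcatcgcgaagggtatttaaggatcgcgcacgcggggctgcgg
COL4A5, chrX:108439588-108439837, plus strand: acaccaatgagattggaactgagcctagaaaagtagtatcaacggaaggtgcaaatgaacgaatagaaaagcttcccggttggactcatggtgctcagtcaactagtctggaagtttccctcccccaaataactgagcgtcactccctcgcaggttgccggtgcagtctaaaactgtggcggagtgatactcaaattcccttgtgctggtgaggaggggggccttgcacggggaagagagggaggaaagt
Between COL4A1 and COL4A2, chr13:110307158-110307283: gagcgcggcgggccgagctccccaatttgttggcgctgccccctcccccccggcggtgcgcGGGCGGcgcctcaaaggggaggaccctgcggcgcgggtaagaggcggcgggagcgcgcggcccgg

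The start sites of COL4A1 and COL4A2 are separated by these 126 bases, which have a GC content of 80.2% and hold 1 GC box. The COL19A1 stretch, at 48.4% GC, and the COL25A1 stretch, at 70% GC, hold no GC box, and the COL12A1 stretch, at 61.2% GC, holds 1. Of the 22 genes, 18 had an upstream stretch in the table used, in 25 windows of 250 bases. The windows are not independent. COL11A2 gives 4, and COL18A1, COL24A1, COL4A6 and COL9A1 give 2 each. Those of COL4A1 and COL4A2 share the 126 bases and their GC box. A GC box on either strand was found in 15 of these 25 windows (60%) against 42.6% of all 35116 windows, and CCAAT on either strand in 7 (28%) against 32%. The AP-1 motif TGANTCA and the E-box CACGTG, searched on both strands, were found in 0 of the 25 windows, against 6.57% and 6.34% of all windows. These counts describe letters in a window and say nothing about the binding of a factor.

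The recovered reads per library ran from 6897784 to 16861001, and 1 read was worth 0.602 to 1.52 in the deposited unit, which is a count divided by the library's size factor. The trametinib libraries stood apart at low read numbers: replicate 2 had 5362 genes at 0 and replicate 1 had 3743, against 2222 to 2890 in the others, and genes with 1 to 5 reads made up 2.10% and 6.74% of the detected genes, against 9.93% to 13.3%. Values of weakly expressed collagens in these libraries, including values at 0, rest on that background, whose part in the results was not tested. Log2 changes below are on the log2(value + 1) scale, ± standard error, from limma over 13320 genes in 1 fit of all 8 libraries, and passing means a Benjamini-Hochberg adjusted p under 0.05. This scale understates changes of low genes, and a single 0 can inflate them.

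Summed collagen expression was higher in every drug-treated library than in either vehicle library. The sum over all 39 genes was 6360 and 6643 in vehicle, 8898 and 10036 under trametinib, 7456 and 7706 under panobinostat, and 9496 and 9894 under both drugs. The group means were 6501 ± 200 (SD, n = 2) in vehicle, 9467 ± 804 under trametinib, 7581 ± 177 with panobinostat and 9695 ± 282 in the combination, or 1.46, 1.17 and 1.49 times vehicle. Fibrillar genes made up the smallest of the 3 sums and had the largest ratios to vehicle. Their sum was 438 and 436 in vehicle, 1102 and 1456 under trametinib, 813 and 922 under panobinostat, and 1270 and 1357 under both drugs, or 2.93, 1.98 and 3.00 times vehicle. Most of the rise of this sum with panobinostat lay in COL1A1. Its mean was 141 in vehicle, 666 under trametinib, 551 under panobinostat and 691 under both drugs. The fibrillar sum had means of 437, 1279, 868 and 1314 in the same order. The basement membrane sum changed least, at 1.20, 0.960 and 1.25 times vehicle, and the panobinostat libraries (3419 and 3675) overlapped the vehicle libraries (3656 and 3731) in part. The other types were at 1.58, 1.34 and 1.59 times vehicle. In bulk RNA, fewer cells expressing a gene and less RNA per cell cannot be told apart.

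**Figure D1:**
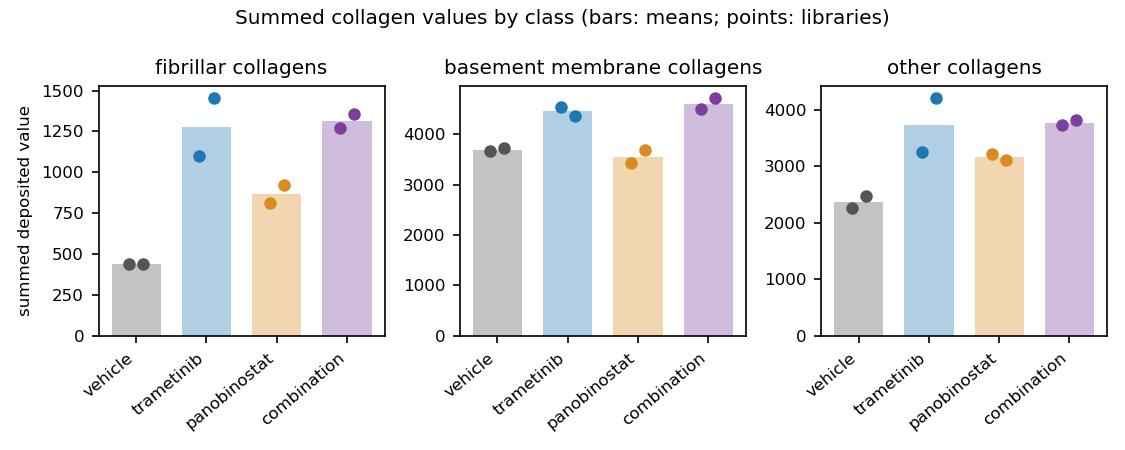
Summed deposited values of fibrillar, basement membrane and other collagen genes by treatment, with bars at the means and 1 point per library (n = 2 per group). Every drug-treated library lies above both vehicle libraries in the fibrillar and other sums, while the panobinostat libraries lie near vehicle in the basement membrane sum.

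A few genes carried most of this signal. COL4A1, COL4A2, COL6A1 and COL6A2 together held 75.8% and 76.2% of the collagen value in vehicle, 67.9% and 63.5% under trametinib, 62.8% and 63.8% under panobinostat, and 62.8% and 62.2% under both drugs, so this share was lower in every treated library. Per kilobase of exonic length in GENCODE v29, an annotation that may differ from the authors', the order of levels in vehicle was COL6A1 (293), COL4A1 (173), COL4A2 (146), COL9A3 (121) and COL6A2 (113), followed at a distance by COL4A5 (41.0), COL27A1 (27.0), COL19A1 (24.8) and COL1A1 (20.9). The length joins the exons of all listed transcripts of a gene, 12971 bases for COL4A2 and 7525 for COL4A1. The order of COL4A1 and COL4A2 turns on this length. In the deposited unit COL4A2 was 1.51 and 1.41 times COL4A1 in vehicle. In the combination COL6A1 (355 per kilobase) stayed first, COL9A3 (254) and COL6A2 (238) came next, and COL1A1 reached 103. The vehicle libraries of COL9A3 (115 and 126) and COL6A2 (107 and 119) overlapped on this scale, so these neighbours did not differ beyond their spread.

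All 22 genes given singly, and none of the other 17, also passed the filter of a mean of at least 10 and were tested. With trametinib 11 of the 22 rose and 2 fell against vehicle, where 23.7% of all tested genes rose and 27.4% fell. The median log2 change was 0.54 over the 22 genes and -0.07 over all tested genes. Fewer collagen genes rose without vehicle replicate 1. Fewer fell without vehicle replicate 1 or 2, and more fell without trametinib replicate 1 or 2. In each of these settings the number of all tested genes that passed moved the same way.

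With panobinostat 5 genes rose and 0 fell by limma, where 15.0% of all tested genes rose and 15.6% fell, and the median was 0.40 against 0.00 over all genes. At an unadjusted p under 0.05, 2 collagen genes were lower, and adjusted calls of lower genes numbered 0 by edgeR and 2 by DESeq2. Without trametinib replicate 1 or 2, whose spread enters the shared fit, more collagen genes rose and more fell. In these settings more of all tested genes also passed in both directions.

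In the combination 10 genes rose and 1 fell, where 24.5% of all tested genes rose and 25.5% fell, and the median was 1.08 against 0.03. Fewer collagen genes rose without vehicle replicate 1 or combination replicate 1. Fewer fell without vehicle replicate 2, and more fell without trametinib replicate 1 or 2. In each of these settings the number of all tested genes that passed moved the same way. The 3 comparisons with vehicle share the vehicle libraries.

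Against trametinib alone, 3 genes were higher in the combination (COL12A1, COL19A1 and COL4A6) and 0 lower by limma, where 17.6% of all tested genes were higher and 15.2% lower. COL4A6 passed the filter only through the combination, with a mean of 33.2 there and at most 9.13 in the other groups. Its place in this count is therefore no support. No collagen gene was lower at an unadjusted p under 0.05 by limma, and the adjusted count was 0 by edgeR and 1 by DESeq2. More collagen genes were higher without trametinib replicate 1 or 2, fewer without combination replicate 1 or 2, and more were lower without trametinib replicate 1. In each of these settings the number of all tested genes that passed moved the same way. Against panobinostat alone, 5 genes were higher (COL16A1, COL24A1, COL4A2, COL4A5 and COL9A3) and 0 lower, where 10.9% of all tested genes were higher and 13.1% lower. Again 0 genes were lower at an unadjusted p under 0.05 by limma, and the adjusted count was 1 by edgeR and 0 by DESeq2. Without trametinib replicate 1 or 2 more collagen genes were higher and more were lower, and without combination replicate 1 or 2 fewer were higher. Here too the number of all tested genes that passed moved the same way.

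**Figure D2:**
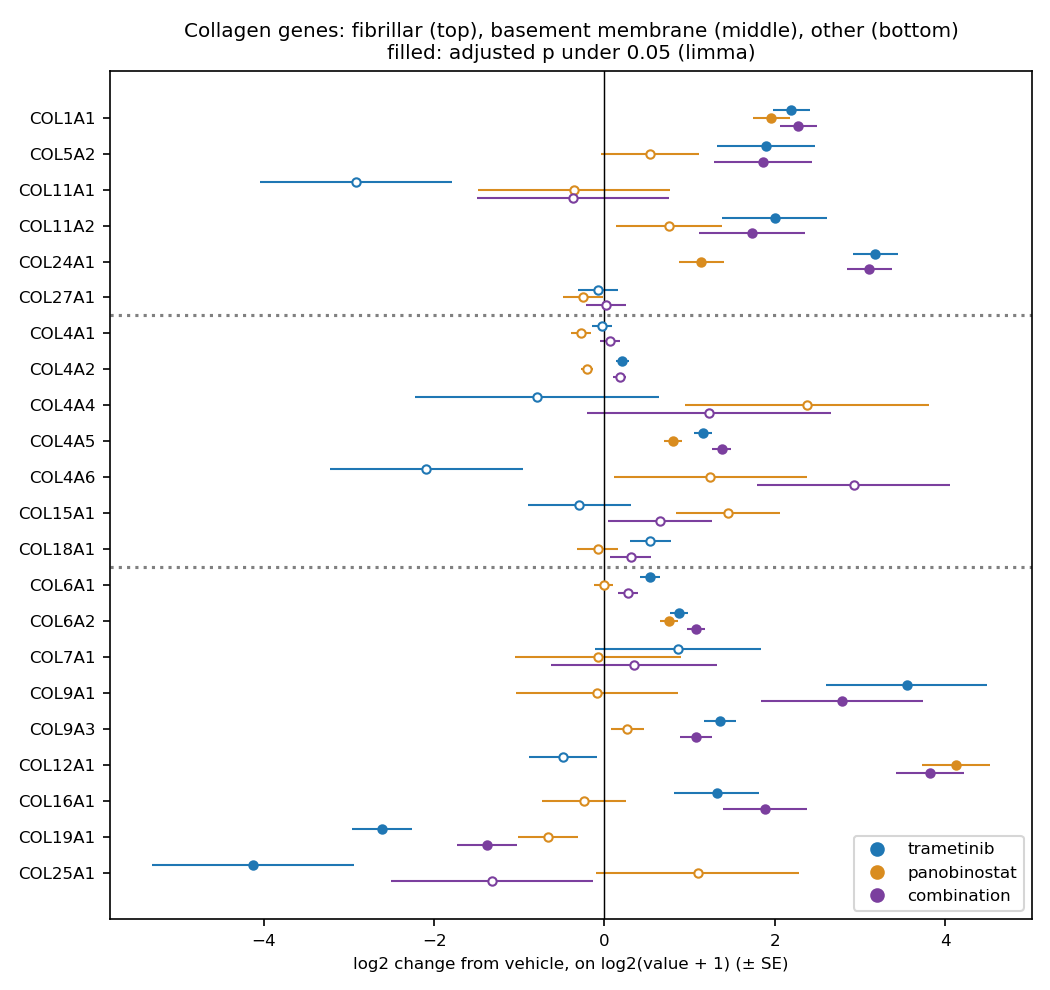
Log2 change from vehicle on the log2(value + 1) scale for the 22 collagen genes under trametinib, panobinostat and the combination, with bars for ± SE and filled points for genes that passed. With trametinib 11 genes passed as higher and 2 as lower, with panobinostat 5 as higher, and in the combination 10 as higher and 1 as lower.

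Of the fibrillar genes, 4 of 6 rose under trametinib, 2 with panobinostat and 4 in the combination, where 23.7%, 15.0% and 24.5% of all tested genes rose. COL1A1 encodes a chain of type I collagen, the main collagen of skin, bone and tendon. Its value was 133 and 149 in vehicle, 511 and 821 under trametinib, 510 and 593 under panobinostat, and 608 and 774 under both drugs. The 6 drug-treated libraries were all above vehicle. The trametinib libraries overlapped those of both other treatments, and the panobinostat libraries were below the combination libraries. COL1A1 rose by 2.20 ± 0.22 with trametinib (adjusted p = 3.19e-05), by 1.96 ± 0.22 with panobinostat (0.000228) and by 2.28 ± 0.22 in the combination (2.64e-05). The combination differed from trametinib by 0.08 ± 0.22 (95% interval -0.413 to 0.577) and from panobinostat by 0.32 ± 0.22 (-0.176 to 0.814), and neither passed.

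COL24A1 encodes a fibrillar chain of type XXIV. Its value was 29.5 and 25.3 in vehicle, 279 and 235 under trametinib, 58.1 and 64.5 under panobinostat, and 241 and 246 under both drugs. The panobinostat libraries lay between vehicle and the 4 libraries that had trametinib. The rise was 3.18 ± 0.26 under trametinib, or 9.07-fold (adjusted p = 9.31e-06), 1.14 ± 0.26 with panobinostat (0.0104) and 3.11 ± 0.26 in the combination (1.19e-05). The combination was 1.98 ± 0.26 above panobinostat (0.000607) and differed from trametinib by -0.07 ± 0.26 (95% interval -0.664 to 0.523, not passing). The panobinostat call was lost without vehicle replicate 2 (1.03) or panobinostat replicate 2 (1.06).

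COL5A2, a chain of type V that copolymerises with type I fibrils, and COL11A2, a chain of the cartilage type XI, were weakly expressed and higher where trametinib was present. COL5A2 was at 10.2 and 13.5 in vehicle, 33.1 and 65.3 under trametinib, 14.3 and 21.2 under panobinostat, and 42.1 and 48.7 under both drugs. COL11A2 was at 11.4 and 30.9, 107 and 57.3, 28.5 and 37.3, and 99.5 and 42.6 in the same order. For both genes the 4 libraries with trametinib lay above the other 4. COL5A2 rose by 1.90 ± 0.58 with trametinib (adjusted p = 0.021) and 1.86 ± 0.58 in the combination (0.023), and COL11A2 by 2.00 ± 0.62 (0.0232) and 1.73 ± 0.62 (0.0419). These calls were fragile: without vehicle replicate 1 or 2 the COL5A2 call with trametinib was lost (1.72 and 2.08), as was that in the combination without either vehicle library (1.68 and 2.04) or either combination library (1.96 and 1.76). The COL11A2 call was lost with trametinib without vehicle replicate 1 (1.32), and in the combination without vehicle replicate 1 (1.05), either panobinostat library (1.73 and 1.73) or combination replicate 1 (1.13), with no filter, with no trend and with the replicate block (all 1.73, block adjusted p = 0.055).

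The last pair of fibrillar genes did not pass in any comparison as fitted. COL11A1, another type XI chain, was at 25.9 and 24.5 in vehicle, 11.0 and 0 under trametinib, 14.3 and 26.2 under panobinostat, and 26.9 and 13.7 under both drugs. The trametinib libraries were below all others, at -2.92 ± 1.13 against vehicle (limma adjusted p = 0.0552). The change was -1.12 without trametinib replicate 2, in which COL11A1 was at 0. It was -4.71 without trametinib replicate 1, where that 0 is the only trametinib value. With a pseudocount of 4 COL11A1 passed by limma (-1.91, adjusted p = 0.0438). COL27A1, a fibrillar chain of type XXVII, ran from 160 to 247 over the 8 libraries, and its groups overlapped except for panobinostat (179 and 172) against vehicle (228 and 192) and against the combination (222 and 202).

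Of the genes of other types, 5 of 9 rose and 2 fell under trametinib, 2 rose under panobinostat, and 5 rose and 1 fell in the combination. Of all tested genes 23.7% rose and 27.4% fell with trametinib, 15.0% rose with panobinostat, and 24.5% rose and 25.5% fell in the combination, so the falls with trametinib and the rises with panobinostat were near the share of all genes. COL12A1 encodes the FACIT chain of type XII, found on type I fibrils. Its value was 19.9 and 19.8 in vehicle, 9.03 and 21.1 under trametinib, 358 and 367 under panobinostat, and 327 and 265 under both drugs. All 4 libraries that had panobinostat were at 265 or more and the other 4 at 21.1 or less, a split that coincides with the blocks of sample records. The rise was 4.13 ± 0.40 with panobinostat, or 17.4-fold (adjusted p = 0.00011), and 3.82 ± 0.40 in the combination (4.53e-05), and the combination was 4.31 ± 0.40 above trametinib (6.37e-05). Trametinib alone changed it by -0.48 ± 0.40 against vehicle (0.339), and the combination differed from panobinostat by -0.30 ± 0.40 (95% interval -1.21 to 0.604).

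COL16A1, COL9A1 and COL9A3 encode FACIT chains of types XVI and IX, the latter known from cartilage and the vitreous of the eye. COL9A3 was at 288 and 314 in vehicle, 623 and 954 under trametinib, 396 and 332 under panobinostat, and 615 and 654 under both drugs. COL16A1 was at 20.5 and 30.1, 75.2 and 53.2, 14.3 and 30.2, and 90.1 and 98.9. COL9A1 was at 3.01 and 4.75, 43.1 and 70.3, 9.17 and 1.01, and 21.1 and 48.7. In all of these genes the libraries with trametinib lay above those without it. COL9A3 rose by 1.36 ± 0.19 with trametinib (adjusted p = 0.000297) and by 1.07 ± 0.19 in the combination (0.00124), and was 0.81 ± 0.19 higher in the combination than with panobinostat (0.0137). COL16A1 rose by 1.32 ± 0.49 with trametinib (0.0497) and 1.89 ± 0.49 in the combination (0.0105), where it was 2.13 ± 0.49 above panobinostat (0.0124). COL9A1 rose by 3.55 ± 0.95 with trametinib (0.0116) and 2.79 ± 0.95 in the combination (0.0342).

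The calls of COL16A1 and COL9A1 depended on single libraries. The COL16A1 call with trametinib was lost without vehicle replicate 1 (1.05), vehicle replicate 2 (1.58), trametinib replicate 1 (1.07) or either combination library (1.32), and with no filter, a mean of at least 50, TMM scaling (1.29) or the replicate block (1.32, adjusted p = 0.059). In the combination it was lost without vehicle replicate 1 (1.62) or either combination library (1.95 and 1.82), and against panobinostat without panobinostat replicate 1 (1.61) or either combination library (2.19 and 2.06). The COL9A1 call was lost with trametinib without vehicle replicate 1 (3.29), and in the combination without vehicle replicate 1 or 2 (2.53 and 3.05) or combination replicate 1 or 2 (3.37 and 2.20). That of COL9A3 against panobinostat was lost without panobinostat replicate 2 (0.68), without either combination library (0.85 and 0.76) and with no trend (0.81).

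COL19A1, which encodes the FACIT-related chain of type XIX, and COL25A1, the transmembrane chain of type XXV, fell with trametinib. COL19A1 was at 150 and 183 in vehicle, 31.1 and 22.1 under trametinib, 129 and 83.7 under panobinostat, and 62.0 and 63.9 under both drugs. The 4 groups did not overlap, with vehicle highest and trametinib lowest. COL19A1 fell by 2.61 ± 0.36 with trametinib (adjusted p = 0.000235) and by 1.38 ± 0.36 in the combination (0.00958), and was 1.23 ± 0.36 higher in the combination than with trametinib (0.0258). Panobinostat alone gave -0.66 ± 0.36 (0.194). The combination call was lost without vehicle replicate 2 (-1.24), and that against trametinib without either vehicle library (1.23) or either combination library (1.25 and 1.21). COL25A1 was at 98.7 and 84.7 in vehicle, 27.1 and 0 under trametinib, 193 and 200 under panobinostat, and 30.4 and 42.6 under both drugs. The panobinostat libraries were highest, and all 4 with trametinib were below vehicle. COL25A1 changed by -4.12 ± 1.19 with trametinib (adjusted p = 0.0166), and by -1.72 without trametinib replicate 2, in which it was at 0, and -6.53 without trametinib replicate 1. On recovered reads it changed by -2.73 by edgeR and by -2.76 by DESeq2, which did not call it. The call was also lost without either vehicle library (-4.02 and -4.23) and with no trend. As fitted, the other contrasts of COL25A1 did not pass, panobinostat at 1.09 ± 1.19 (0.539). The standard error is shared by all groups and includes the spread of the trametinib libraries. The combination against panobinostat, -2.41 ± 1.19 as fitted, passed by edgeR (-2.45, adjusted p = 0.0426) but not by DESeq2. It also passed by limma with a pseudocount of 4 (-2.32, adjusted p = 0.045).

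**Figure D3:**
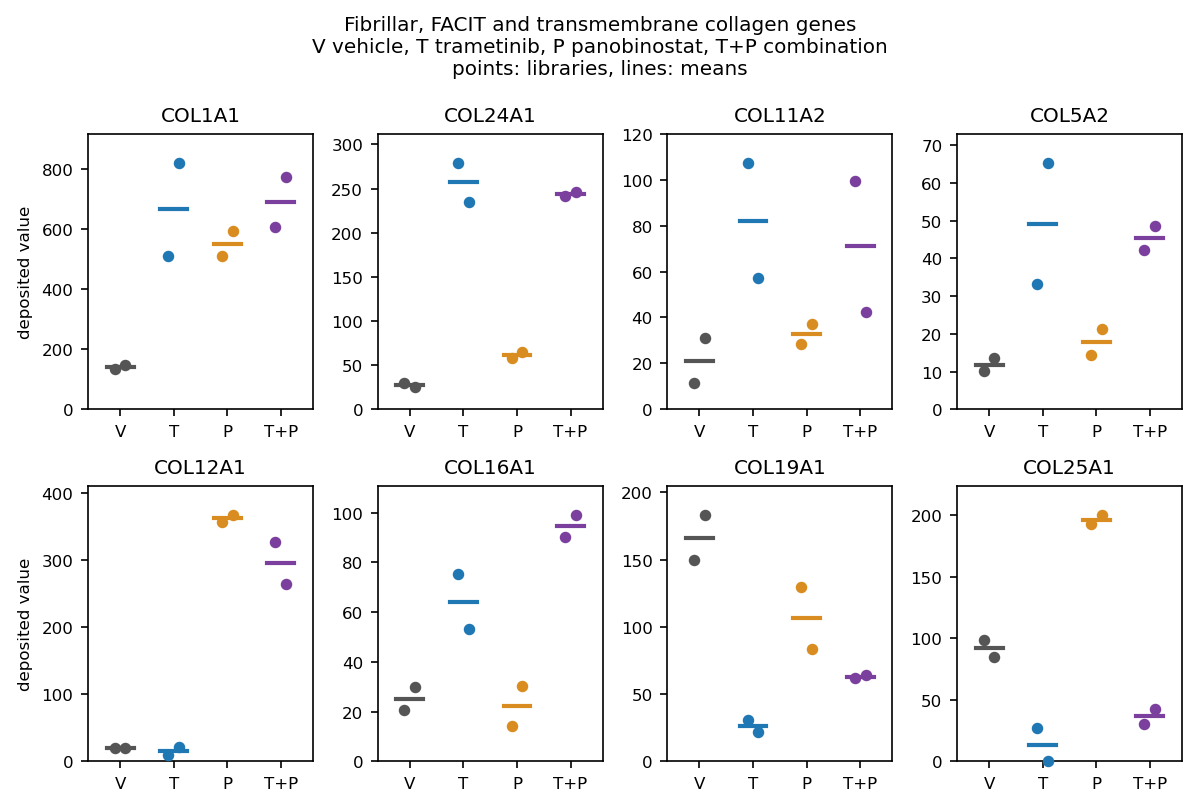
Deposited values of 8 fibrillar, FACIT and transmembrane collagen genes by treatment on linear axes from 0, with 1 point per library and lines at the means (n = 2 per group). COL12A1 is at 265 or more in the 4 libraries with panobinostat and at 21.1 or less in the rest, while COL24A1 is highest in the 4 with trametinib.

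COL6A1 and COL6A2 encode chains of type VI collagen. COL6A1 was at 1193 and 1292 in vehicle, 1582 and 2051 under trametinib, 1254 and 1212 under panobinostat, and 1484 and 1527 under both drugs. COL6A2 was at 469 and 526, 851 and 974, 841 and 843, and 1061 and 1039. COL6A1 with panobinostat overlapped vehicle, and COL6A2 was above vehicle in all 6 treated libraries. COL6A1 rose by 0.54 ± 0.11 with trametinib (adjusted p = 0.00365), or by 0.35 without trametinib replicate 2, while the panobinostat change was -0.01 ± 0.11 (0.958) and that of the combination 0.28 ± 0.11 (0.0707). COL6A2 rose by 0.87 ± 0.10 with trametinib (0.000102), by 0.76 ± 0.10 with panobinostat (0.000718) and by 1.08 ± 0.10 in the combination (2.67e-05). The ratio of COL6A2 to COL6A1, not per length, was 0.393 and 0.407 in vehicle, 0.538 and 0.475 under trametinib, 0.671 and 0.696 under panobinostat, and 0.715 and 0.680 under both drugs. A test of the difference between these genes was not run. COL7A1, the anchoring fibril chain, lay between 7.02 and 18.3 in 7 libraries and at 55.3 in trametinib replicate 2, and did not pass in any comparison as fitted.

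Of the 7 basement membrane genes, 2 rose under trametinib, 1 with panobinostat and 1 in the combination. These counts were near or below the 23.7%, 15.0% and 24.5% of all tested genes that rose. COL4A1 and COL4A2, which share the 126 bases shown above and encode the chains of the most widespread type IV network, were strongly expressed in every group. COL4A1 was at 1256 and 1344 in vehicle, 1438 and 1128 under trametinib, 1012 and 1137 under panobinostat, and 1342 and 1369 under both drugs. COL4A2 was at 1898 and 1898, 2173 and 2220, 1573 and 1721, and 2079 and 2217. Both genes were lowest with panobinostat, at -0.28 ± 0.12 for COL4A1 (adjusted p = 0.11) and -0.21 ± 0.073 for COL4A2 (0.0588) against vehicle, and neither passed. COL4A2 rose by 0.21 ± 0.073 under trametinib, or 1.16-fold (0.0362), and was 0.38 ± 0.073 higher in the combination than with panobinostat (0.0045). The trametinib call was lost without either vehicle library (0.21 and 0.21) or trametinib replicate 2 (0.20), with no trend and with TMM scaling (0.19), and that against panobinostat without panobinostat replicate 1 (0.32) and with no trend. COL4A1 changed by -0.03 ± 0.12 with trametinib (0.858).

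COL4A5 encodes a type IV chain of kidney and other specialised basement membranes. Its value was 326 and 314 in vehicle, 669 and 762 under trametinib, 555 and 565 under panobinostat, and 823 and 838 under both drugs. The 4 groups did not overlap, with vehicle lowest and the combination highest. COL4A5 rose by 1.16 ± 0.11 with trametinib (adjusted p = 2.23e-05), 0.80 ± 0.11 with panobinostat (0.000688) and 1.37 ± 0.11 in the combination, or 2.59-fold (7.96e-06). The combination was 0.57 ± 0.11 above panobinostat (0.00484) and 0.22 ± 0.11 above trametinib, which did not pass (0.155). The ratio of COL4A5 to COL4A1, not per length, was 0.259 and 0.234 in vehicle and between 0.465 and 0.675 in the treated libraries.

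COL4A6, the head-to-head neighbour of COL4A5, was low throughout. It was at 6.02 and 1.58 in vehicle, 0 and 0 under trametinib, 10.2 and 8.07 under panobinostat, and 22.2 and 44.1 under both drugs, the latter from 19 and 29 reads. The combination libraries were above all others and the trametinib libraries were both at 0. The combination was at least 11.0-fold higher than trametinib, against a floor of 3 reads per library that covers counting error only. The limma change was 5.02 ± 1.14 (adjusted p = 0.00861). COL4A6 passed the filter only through the combination, so this call is no support. Without either combination library its mean fell below the filter, so this call could not be checked by leaving those libraries out. The combination was 2.93 ± 1.14 above vehicle, which did not pass (0.0566). COL4A4, whose product joins the network of the kidney and the eye, was at 9.63 and 12.7 in vehicle, 0 and 47.2 under trametinib, 71.4 and 53.4 under panobinostat, and 30.4 and 24.3 under both drugs. The trametinib libraries lay on both sides of vehicle, and the panobinostat libraries were above all others. COL4A4 did not pass in any comparison as fitted, panobinostat at 2.38 ± 1.43 against vehicle (adjusted p = 0.249). This standard error is shared by all groups and includes the spread of the trametinib libraries.

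COL15A1 and COL18A1 encode basement membrane collagens that carry sugar side chains, and the C-terminal part of the COL18A1 product is released as endostatin. COL15A1 was at 19.9 and 24.5 in vehicle, 10.0 and 31.1 under trametinib, 55.0 and 69.6 under panobinostat, and 29.3 and 42.6 under both drugs. COL18A1 was at 140 and 136, 243 and 166, 142 and 121, and 166 and 176. The panobinostat libraries of COL15A1 were above all others, but the change of 1.45 ± 0.61 did not pass as fitted (adjusted p = 0.105). Its standard error also includes the spread of the trametinib libraries. No contrast of COL18A1 passed as fitted.

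**Figure D4:**
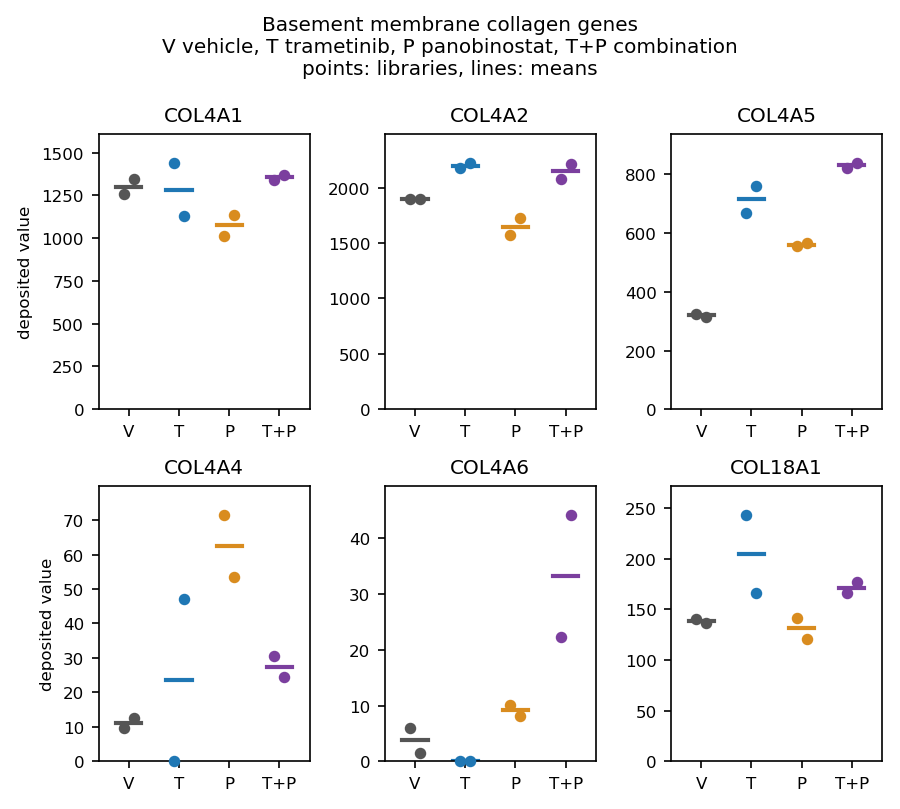
Deposited values of 6 basement membrane collagen genes by treatment on linear axes from 0, with 1 point per library and lines at the means (n = 2 per group). COL4A1 and COL4A2 are lowest under panobinostat by their means, COL4A5 is lowest in vehicle and highest in the combination, and COL4A6 is at 0 in both trametinib libraries.

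The interaction asks whether the change from trametinib to the combination differed from the change from vehicle to panobinostat, in log2. Of the 22 collagen genes 1 was higher and 3 were lower than the sum of the single-drug changes, where 10.2% and 9.04% of all tested genes were higher and lower, and the median was -0.30 over the 22 genes and 0.08 over all. COL1A1 gave -1.88 ± 0.31 (adjusted p = 0.00293): panobinostat raised it by 1.96 over vehicle, and adding panobinostat to trametinib changed it by 0.08. This call held in all 16 alternative settings. COL19A1 gave 1.90 ± 0.50 (0.0281), COL4A5 -0.59 ± 0.15 (0.0276) and COL6A2 -0.55 ± 0.15 (0.0283), and COL24A1, at -1.21 ± 0.37, did not pass (0.0508). For COL12A1 the interaction was 0.18 ± 0.57 (0.845).

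The other 3 interaction calls did not survive the loss of single libraries. They were lost on leaving out any vehicle, panobinostat or combination library. COL19A1 was then between 1.58 and 2.21, COL4A5 between -0.61 and -0.56 and COL6A2 between -0.64 and -0.47. More collagen genes passed in both directions without trametinib replicate 1, and more were higher without trametinib replicate 2. In each of these settings the number of all tested genes that passed moved the same way.

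**Figure D5:**
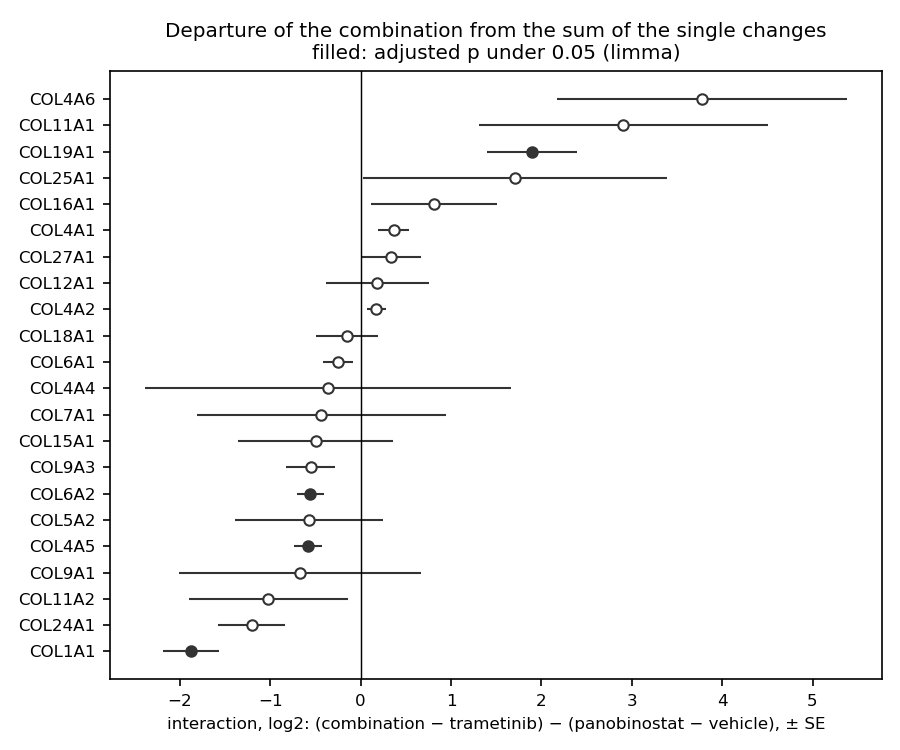
Interaction of the 22 collagen genes in log2, ordered by value, with bars for ± SE and filled points for genes that passed. COL1A1 is lowest at -1.88, COL4A5 and COL6A2 are also filled below 0, and COL19A1 is the filled gene above 0.

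Genes that make, export, assemble or bind collagen, or signal through TGF-beta, were read from 5 lists. Their counts stand against all tested genes, of which 23.7% rose and 27.4% fell with trametinib, 15.0% rose and 15.6% fell with panobinostat, and 24.5% rose and 25.5% fell under both drugs. Of 17 tested genes of chain modification and folding, 2 rose and 7 fell under trametinib, 2 and 4 under panobinostat, and 3 and 6 under both drugs (medians -0.33, -0.02 and -0.14). The falls with trametinib and in the combination were above the share of all genes (27.4% and 25.5%), and the 4 with panobinostat were nearer to it (15.6%). PLOD1, which hydroxylates lysines of collagen chains, fell by 1.23 ± 0.071 with trametinib (adjusted p = 9.7e-07), and SERPINH1, the collagen chaperone HSP47, fell by 0.92 ± 0.12 in the combination (0.00014). P4HA2, a prolyl hydroxylase subunit, rose by 0.84 ± 0.14 with panobinostat (0.0018). Its values were 258 and 290 in vehicle, 540 and 601 under trametinib, 501 and 478 under panobinostat, and 562 and 475 under both drugs.

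Of 12 tested genes of export, propeptide cleavage and crosslinking, 4 rose and 3 fell under trametinib, 2 rose with panobinostat and 6 rose in the combination (medians -0.02, 0.25 and 0.43). The counts with each single drug were near the share of all genes (23.7% higher and 27.4% lower with trametinib, 15.0% higher with panobinostat), and the 6 in the combination were above it (24.5%). ADAMTS14, an aminoprocollagen peptidase, was at 3.61 and 2.38 in vehicle, 227 and 310 under trametinib, 9.17 and 4.03 under panobinostat, and 1.17 and 7.61 under both drugs. It was high in the trametinib libraries alone, at 6.08 ± 0.90 against vehicle (adjusted p = 0.000394), and the combination against trametinib gave -5.94 ± 0.90 (0.00101). LOX, a lysyl oxidase that crosslinks collagen, fell by 2.22 ± 0.31 with trametinib (0.000262), and BMP1, which cleaves C-propeptides, rose by 0.73 ± 0.085 in the combination (8.92e-05). BMP1 was highest with trametinib alone (1773 and 1806), against 787 and 749 in vehicle, 751 and 758 under panobinostat, and 1339 and 1212 under both drugs.

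Of 8 tested collagen receptors, 2 rose under trametinib, 6 rose under panobinostat, and 6 rose and 1 fell in the combination (medians 0.20, 0.66 and 0.95). The count with trametinib was at the share of all genes (23.7%), and the rises with panobinostat and in the combination were above it (15.0% and 24.5%). MRC2, which takes up collagen fragments, rose by 2.51 ± 0.41 with panobinostat (adjusted p = 0.0017) and by 2.93 ± 0.41 in the combination (0.000268). The integrin chain gene ITGA2 rose by 1.17 ± 0.16 with panobinostat (0.00069). Of 6 tested matrix partners, 2 rose and 1 fell under trametinib, 3 rose with panobinostat and 5 in the combination (medians 0.71, 0.79 and 1.65). SPARC, a collagen-binding glycoprotein, rose by 1.54 ± 0.068 in the combination (2.36e-07). Of 9 TGF-beta ligands, receptors and SMADs, 2 rose and 1 fell under trametinib, and 3 rose with panobinostat and 3 in the combination (medians -0.02, 0.06 and 0.14). The rises with trametinib and in the combination were near the share of all genes (23.7% and 24.5%), and those with panobinostat were above it (15.0%). TGFBR2, a TGF-beta receptor, rose by 2.11 ± 0.13 with trametinib (1.11e-06), and TGFB1, a ligand, rose by 1.02 ± 0.12 with panobinostat (0.000337).

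The melanocyte markers MLANA, PMEL, TYR, TYRP1, MITF and SOX10 were strongly expressed in every library. The marker DCT was at 14.4 and 4.75 in vehicle, 1984 and 1912 under trametinib, 5.10 and 10.1 under panobinostat, and 258 and 236 under both drugs. With DCT these markers summed to 103558 to 111479 in vehicle and to between 99938 and 175142 in the treated libraries. Of 8 fibroblast markers 3 reached a mean of 10, with THY1 and FAP at 0 in all libraries. Their sum was 298 to 304 in vehicle, 298 to 338 under trametinib, 457 to 528 with panobinostat and 561 to 706 in the combination. Of 5 pericyte or smooth muscle markers 2 reached that mean, and their sum was 179 to 194, 354 to 392, 393 to 533 and 748 to 765 in the same order. Of 5 endothelial markers 1 (VWF) reached it, with CDH5 at 0 in all libraries, and their sum was 2.41 to 3.17, 85.4 to 144, 0 to 7.14 and 33.5 to 41.0. Of 4 retinal pigment epithelium markers 2 (BEST1 and LRAT) reached it, and their sum was 190.0 to 197 in vehicle, 782 to 794 with trametinib, 303 to 350 under panobinostat and 706 to 770 in the combination. Of 4 immune markers 1 (CD68) reached it, and their sum was 615 to 654, 762 to 843, 1421 to 1498 and 860 to 947 in the same order. These sums moved with the collagen sums in part, and their part in the results was not tested.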

How the data were processed

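RNA-seq of 8 libraries of 92.1 cells was used. Total RNA went into the NuGEN Ovation FFPE kit for human RNA-Seq, per the labels' protocols. The submitters' processing notes name DESeq2, TopHat2 2.0.13 and Cufflinks 2.2.1, and hs37d5 as the build for vehicle and trametinib alone. Annotation, strand setting and the build of the other libraries are not given in the sources used here. Each signal value the authors deposited was a count over the library's size factor: dividing by each library's step gave whole reads for 100% of values in each of the 8 libraries (tolerance 1e-06). In 3 of them the step itself was close to 1 (1.00 to 1.01), and edgeR and DESeq2 rest on the reads recovered there too.

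limma 3.58.1 (R 4.3.3) was run on log2(value + 1) with an intensity trend over the 13320 genes with a mean of at least 10. It had 4 residual and 5.32 prior degrees of freedom, and adjusted p-values are Benjamini-Hochberg over all tested genes. The interaction is (combination - trametinib) - (panobinostat - vehicle). With 2 libraries a group, exact permutation cannot go below p = 0.333. The script was tested on simulated data. Alternatives were pseudocount 4, no filter, no trend, TMM scaling, a replicate block and leaving out each library. After seeing the data, edgeR 4.0.16 and DESeq2 1.42.0 on recovered reads and a mean of at least 50 were added. Single genes are those with a group mean of 20 or more. From the lists of related genes, up to 3 per comparison were eligible by size of change, and those printed were chosen from these with values known. Members and lists were chosen with earlier results of these data known. Exonic lengths are from GENCODE v29, in which 7 of the 22 genes share exonic bases with another gene, at most 2.49% of their length.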

Additional observations from a re-analysis of the deposited data

Results flagged for a closer look

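The interaction of 4 of the 22 collagen genes passed the test, 1 higher and 3 lower. Of all tested genes 10.2% were higher and 9.04% lower, so this count was near the share of all genes. A pass means that the estimated change from adding panobinostat differed with and without trametinib. COL1A1 was at -1.88 and COL19A1 at 1.90 on the log2 scale. COL4A5 was at -0.59 and COL6A2 at -0.55. Of these, COL1A1 kept its call in all 16 alternatives, while COL19A1, COL4A5 and COL6A2 each lost theirs in 7.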

How the results depend on the processing

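Of 41 calls of a collagen gene in a comparison, 21 held in all 16 alternatives and 19 were lost in at least 1, and that of COL4A6 held in the 13 in which it could be tested. COL4A6 passed the filter only through the combination, so its call is no support. The ratios of the sum over all collagen genes were recomputed only with TMM scaling and with each library left out, and stayed within the replicate spread. For left-out libraries this check could hardly fail, because the spread came from the same 2 libraries per group. Replicate numbers did not pair the libraries (correlation of same-numbered deviations -0.0235 to 0.0218), and the replicate block, over 132 gene results, ended the calls of COL16A1 with trametinib (1.32) and COL11A2 in the combination (1.73). The counts of collagen genes that moved were, for panobinostat lower, 1 with TMM and 2 with DESeq2 (0 as reported). Over all tested genes 2187 of 13366 and 2626 of 13320 were lower there (2075 of 13320 as reported). For the combination against trametinib the collagen counts were 9 higher with no filter and 1 lower with DESeq2 (3 and 0). Over all tested genes 2523 of 17948 were higher and 2467 of 13320 lower there (2343 and 2020 of 13320). For the combination against panobinostat the collagen counts were 8 higher with no filter, 3 with no trend and 9 with DESeq2 (5), and 1 lower with pseudocount 4 and with edgeR (0). Over all tested genes 1388 of 17948 were higher with no filter. Of 13320, 1138 were higher with no trend and 1858 with DESeq2 (1451). Lower were 1809 with pseudocount 4 and 1833 with edgeR (1740). No filter brought the other 17 collagen genes, each with a mean under 10, into the test. In these 2 comparisons the higher calls added with no filter were all among those 17, and none among the 22. The interaction gave 0 collagen genes higher with no filter and 2 with no trend and with DESeq2 (1). Over all tested genes 1248 of 17948, 862 of 13320 and 1847 of 13320 were higher there (1361 of 13320).

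Leaving out each library in turn, the counts that rose and fell ran from 6 to 12 and 1 to 4 with trametinib, 4 to 8 and 0 to 3 with panobinostat, 6 to 14 and 0 to 2 in the combination, 1 to 8 and 0 to 3 for combination against trametinib, 3 to 10 and 0 to 3 against panobinostat, and 0 to 5 and 1 to 7 in the interaction. Calls were gained mainly without a trametinib library (36 and 28) and lost mainly without a vehicle (14 and 12) or combination library (11 and 10). The number of all tested genes that passed also rose without a trametinib library and fell without a vehicle or combination library. These collagen counts therefore cannot be set against the shares of the full fit. The cause was not tested.

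No called result changed sign. Among uncalled ones, COL4A4 with trametinib was 1.08 by edgeR and 1.09 by DESeq2. COL9A1 with panobinostat was 0.053 with pseudocount 4 and 0.40 by edgeR and DESeq2. COL27A1 in the combination was -0.030 with TMM and -0.000327 by edgeR. COL11A1 against panobinostat was 0.00202 by edgeR and 0.012 by DESeq2. Leaving out single libraries turned the sign of 34 uncalled results. With trametinib the ranges were COL12A1 -1.05 to 0.085, COL15A1 -1.07 to 0.48, COL27A1 -0.38 to 0.24, COL4A1 -0.20 to 0.15, COL4A4 -3.59 to 2.00 and COL7A1 -0.54 to 2.27. With panobinostat they were COL11A1 -0.78 to 0.055, COL16A1 -0.76 to 0.27, COL18A1 -0.19 to 0.036, COL6A1 -0.068 to 0.047, COL7A1 -0.23 to 0.079 and COL9A1 -1.26 to 1.08. In the combination they were COL11A1 -0.83 to 0.092, COL27A1 -0.10 to 0.14 and COL7A1 -0.020 to 0.72. For the combination against trametinib they were COL11A2 -0.87 to 0.34, COL18A1 -0.50 to 0.047, COL1A1 -0.26 to 0.42, COL24A1 -0.19 to 0.052, COL27A1 -0.22 to 0.40, COL4A1 -0.086 to 0.26, COL4A2 -0.079 to 0.013, COL4A4 -0.77 to 4.82, COL5A2 -0.52 to 0.44, COL7A1 -1.92 to 0.89 and COL9A3 -0.59 to 0.026. Against panobinostat the range was COL11A1 -0.47 to 0.45. In the interaction they were COL12A1 -0.39 to 0.75, COL15A1 -1.27 to 0.27, COL18A1 -0.42 to 0.12, COL25A1 -0.69 to 4.12, COL4A4 -3.15 to 2.44, COL7A1 -1.84 to 0.97 and COL9A1 -1.84 to 0.50.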
